A study of Homo sapiens with 6 samples.

Results

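The miR-376 family is a group of closely related microRNAs (miRNAs) encoded side by side in the 14q32 region of human chromosome 14. Its members were found by name. The mature miRNAs listed as hsa-miR-376a-3p, hsa-miR-376b-3p, hsa-miR-376c-3p and hsa-miR-376a-5p were taken, which makes 4 of the 2576 mature miRNAs counted. They were compared between whole MIO-M1 cells, a human Müller glial cell line derived from normal retinae, and the extracellular vesicles (EV) that these cells secrete into their medium. The labels give every library as wild type (WT) Müller glia of this line grown in DMEM with 10% FCS. The whole cell libraries came from passages 22, 24 and 26 (replicates 1, 2 and 3). The EV libraries came from passages 23, 25 and 27 (replicates 1, 2 and 3), taken by sequential centrifugation from cultures that, per the labels, were at 80% confluence, were washed 5 times and spent 24 hours in serum-free DMEM. All samples derive from 1 cell line, no passage was sampled in both fractions, and p-values measure the spread between passages only. RNA from cells and from EV was isolated with different kits, and the methods describe RNase A treatment of intact EV before isolation. Serum-free conditioning is described for the EV cultures. Fraction thus cannot be told apart from isolation kit, RNase treatment or conditioning.

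A miRNA gene is transcribed as a hairpin. Each strand of the hairpin stem can yield a mature miRNA, called the 5p or the 3p arm, and bases 2 to 8 of the mature miRNA, the seed, carry most of its pairing with messenger RNA. The 14q32 miRNAs lie in an imprinted domain, are expressed from the maternal chromosome, and are known for their expression in brain, placenta and the embryo. The primary transcripts of the miR-376 family are also well-known substrates of adenosine-to-inosine editing, which can change the seed. Editing was not analysed here, because the counts hold no read sequences.

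The mature sequences are shown because the arms differ by so few bases that their counts have to be read together. All 7 mature arms listed for the family matched RefSeq (GRCh38.p14), and the capitals mark the seed. The first 4 are the members and the last 3 are the remaining 5p arms of the same hairpins.
hsa-miR-376a-3p: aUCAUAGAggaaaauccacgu
hsa-miR-376c-3p: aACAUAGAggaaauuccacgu
hsa-miR-376b-3p: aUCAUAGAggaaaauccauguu
hsa-miR-376a-5p: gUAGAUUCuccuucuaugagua
hsa-miR-376a-2-5p: gGUAGAUUuuccuucuauggu
hsa-miR-376b-5p: cGUGGAUAuuccuucuauguuu
hsa-miR-376c-5p: gGUGGAUAuuccuucuauguu

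Counting from 1 at the 5′ end, miR-376a-3p and miR-376b-3p share their seed and differ over the first 21 bases only by C19U, with 1 further base at the end of miR-376b-3p. miR-376a-3p and miR-376c-3p differ by U2A, which lies in the seed, and A14U. miR-376c-5p and miR-376b-5p share a seed of their own and differ over 21 bases by G1C. No other mature miRNA with a matched sequence shared the seed of a member, and the nearest relative of the 3p arms by position was miR-487a-3p, with 16 of 21 bases of miR-376a-3p. A read that ends before base 19 fits miR-376a-3p and miR-376b-3p equally, and how such reads were assigned is not given in the sources used here. For that reason the sum of the 3p arms was followed beside the single arms.

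The family has 4 hairpins on the plus strand within 1160 bases (GRCh38.p14, chr14:101039690-101040849), in the order MIR376C, MIR376A2, MIR376B and MIR376A1. In GENCODE 29 each of them lies within no annotated transcript other than the miRNA gene itself. miR-376a-3p is made from both MIR376A1 and MIR376A2, so its count adds up 2 hairpins, whereas miR-376c-3p comes from MIR376C, miR-376b-3p from MIR376B and miR-376a-5p from MIR376A1.

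Values of single libraries are given throughout in the order of replicates 1, 2 and 3. The whole cell libraries held 396025 to 3990900 counts and the EV libraries 1225541 to 3134561. Whole cell replicate 1 was the shallowest, and 3 of its counts equal 7.58 CPM (the count scaled to a library total of 1000000). The EV libraries held few miRNAs at low counts: 44, 28 and 25 miRNAs had 1 to 9 counts in EV, against 298, 541 and 435 in whole cells. The tests took in the 430 miRNAs that had 5 CPM or more in 3 or more libraries. A miRNA was called where the Benjamini-Hochberg adjusted p over all 430 was under 0.01 and the log2 fold change (EV over whole cells) was at least 2.5 in size. Of the 4 members, 3 passed the filter, and miR-376a-5p did not.

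miR-376a-3p was more abundant in EV than in cells, at 17.8-fold. miR-376c-3p had a fitted fold of 9.11 in the same direction but missed the limit on the adjusted p, miR-376b-3p did not pass the test, and miR-376a-5p was counted only in whole cells. Thus 1 of the 3 members tested was called higher in EV by edgeR's quasi-likelihood test, where 4.42% of all tested miRNAs were called higher. With the adjusted p limit at 0.05, 2 members were called higher against 11.9% of all. DESeq2, with the limits at their first values, called the same 2 members higher, miR-376a-3p and miR-376c-3p, against 10.0% of all. In 2 members the lowest EV library exceeded the highest whole cell library, which held for 20.5% of all tested miRNAs.

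miR-376a-3p, the arm made from the largest number of hairpins in the family, had 179, 98.2 and 79.9 CPM in whole cells and 1188, 3680.4 and 1566 CPM in EV. The groups were far apart, the lowest EV library being 6.63 times the highest whole cell library. The mean rose from 119 ± 52.9 CPM (SD, n = 3) in cells to 2145 ± 1343 CPM (SD, n = 3) in EV. The log2 fold change was 4.16 with a standard error of 0.49 (edgeR quasi-likelihood test, adjusted p = 0.00315). The call was lost without whole cell replicate 3 (3.93, edgeR adjusted p = 0.0178) and without EV replicate 2 (3.55, adjusted p = 0.0160). Among all 430 miRNAs tested, its p was the 6th smallest. Its abundance rank, over all miRNAs counted, was between 138 and 191 in the whole cell libraries and between 46 and 70 in the EV libraries.

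miR-376c-3p, which carries the other seed of the 3p arms, had 306, 109 and 76.7 CPM in whole cells and 749, 3002 and 725 CPM in EV. The groups did not overlap, but the gap was narrower than for miR-376a-3p, the lowest EV library being 2.37 times the highest whole cell library. Whole cell replicate 1 and EV replicate 2 were the high libraries of their groups. The means were 164 ± 124 CPM in cells and 1492 ± 1308 CPM in EV (SD, n = 3 each). The log2 fold change was 3.19 with a standard error of 0.68 (edgeR, adjusted p = 0.0120), beside 2.89 by DESeq2 (adjusted p = 0.000329). It was thus past the limits by DESeq2 and not by edgeR. Without EV replicate 2 the log2 fold change by edgeR was 2.22 (adjusted p = 0.0535), a fold of 4.66 in place of 9.11.

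miR-376b-3p, which shares its seed with miR-376a-3p, was the scarce 3p arm. It had 13, 26 and 5 counts (32.8, 6.51 and 3.99 CPM) in whole cells and 29, 187 and 117 counts (23.7, 91.7 and 37.3 CPM) in EV. The groups overlapped, as whole cell replicate 1 lay above EV replicate 1. The log2 fold change was 1.92 with a standard error of 1.18 (edgeR, adjusted p = 0.299), so a difference could not be shown with these libraries. The fold of 3.79 was 7.72 without whole cell replicate 1 and 2.30 without EV replicate 2, not passing the test in either case. It reached 5 CPM in all 3 EV libraries and in 2 of the whole cell libraries.

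**Figure D1:**
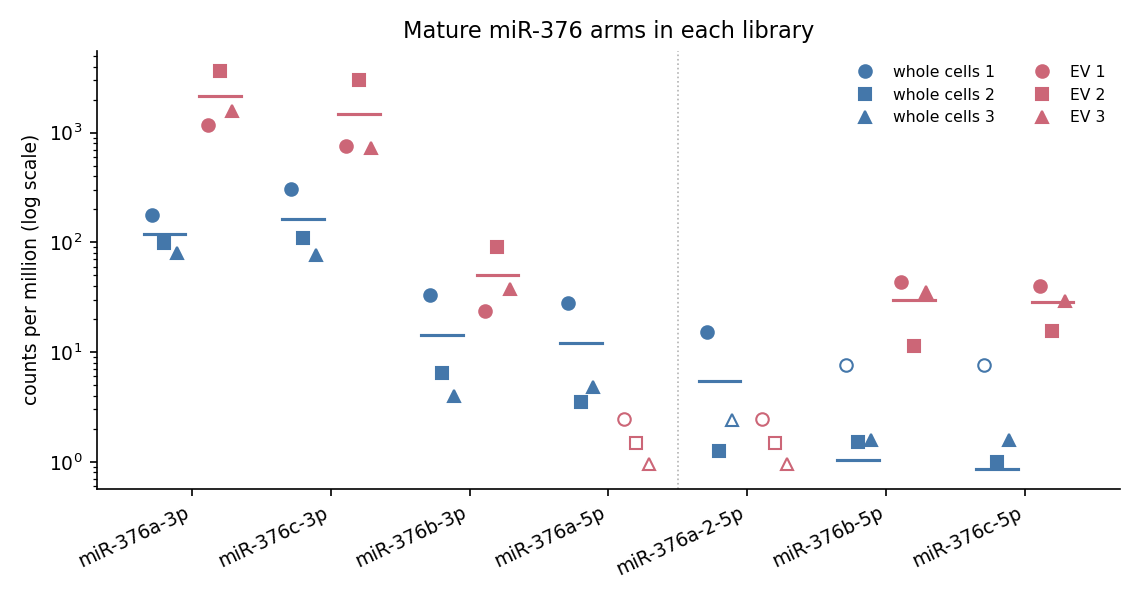
CPM (log scale) of the 7 mature arms of the miR-376 family in each library, members to the left of the dotted line. Symbols are single libraries, horizontal bars are group means, and open symbols are counts of 0 drawn at the CPM of 3 counts. For miR-376a-3p and miR-376c-3p all 3 EV libraries sit above all 3 whole cell libraries, for miR-376b-3p the groups overlap, and miR-376a-5p has open symbols in all EV libraries.

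Summed over the 3p arms, the family had 518, 214 and 160.5 CPM in whole cells and 1961, 6774 and 2329 CPM in EV. Every EV library was above every whole cell library, the lowest of them 3.79 times the highest whole cell library. Within a group the highest library was 3.22 times the lowest in cells and 3.45 times the lowest in EV. The log2 fold change of the sum was 3.61 with a standard error of 0.57 (edgeR, adjusted p = 0.00676). This call was lost at a similar size with RLE factors (3.37, edgeR adjusted p = 0.0102) and on library totals (3.64, adjusted p = 0.0103), and at a smaller size with a trend on GC content removed (2.34, adjusted p = 0.0124). It was also lost with 5 of the 6 single libraries left out, the fold of 12.2 being 7.41 without EV replicate 2. The direction was the same in each of these fits.

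The values per library were also compared by themselves, as log2(CPM + 4), with a two-sided exact permutation test. With 3 libraries in each group this test cannot give a p under 0.1. The exact permutation p was 0.1 for miR-376a-3p (difference of means 4.03), miR-376c-3p (3.06), the summed 3p arms (3.57) and miR-376a-5p (-1.68), and 0.2 for miR-376b-3p (1.71). Adjusted over these 5 tests, the exact permutation p was 0.125 for the first 4 and 0.2 for miR-376b-3p.

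miR-376a-5p, the opposite arm of MIR376A1, was counted 11, 14 and 6 times in whole cells, which is 27.8, 3.51 and 4.79 CPM. It was counted 0 times in each EV library. A count of 0 allows up to 3 counts, or 2.45, 1.47 and 0.957 CPM in EV. Against the mean of these limits, the level in EV was at least 7.40-fold lower than the mean of the whole cell libraries. The bound depended on the shallow library: it was at least 2.55-fold without whole cell replicate 1, at least 10.0-fold without replicate 2 and at least 9.62-fold without replicate 3. These limits cover counting error only, and low counts of any miRNA were rare in EV, as given above. The part of that scarcity in the zeros was not tested.

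The 3 other 5p arms of the family were not members and differed among themselves. miR-376a-2-5p, the opposite arm of MIR376A2, had 6, 5 and 0 counts in whole cells and 0 in every EV library. miR-376b-5p had 0, 6 and 2 counts in whole cells and 53, 23 and 110 in EV, and miR-376c-5p had 0, 4 and 2 counts in whole cells and 49, 32 and 92 in EV. Both were thus counted mainly in EV, in the direction opposite to that of the 5p arms of miR-376a. Their log2 fold changes of 4.58 (edgeR, adjusted p = 0.0432) and 4.73 (adjusted p = 0.0340) did not pass the limits, and since they entered the test through the EV libraries alone, a difference was built into their selection.

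Arm shares put these counts beside their 3p partners. In miR-376a, where both 5p arms were added, the 5p arms made up 19.3%, 4.62% and 5.66% of the counts in whole cells, with 95% Wilson intervals of 12.4 to 28.8%, 2.98 to 7.11% and 2.62 to 11.8%. In EV it was 0 of 1456, 0 of 7503 and 0 of 4908 counts, which allows shares of up to 0.206%, 0.0400% and 0.0611%. The deeper 3p counts in EV therefore placed the limit well below the share seen in every whole cell library. miR-376b went the other way in part: its 5p share was 0 of 13 counts (which allows up to 23.1%), 18.8% and 28.6% in whole cells and 64.6%, 11.0% and 48.5% in EV. The groups overlapped for miR-376b, with EV replicate 2 low. For miR-376c the 5p share was 0 of 121 counts (which allows up to 2.48%), 0.909% and 2.04% in cells and 5.07%, 0.520% and 3.89% in EV, also with overlap. Reads without collapsed molecular identifiers are not independent molecules, so these intervals cover counting error only.

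**Figure D2:**
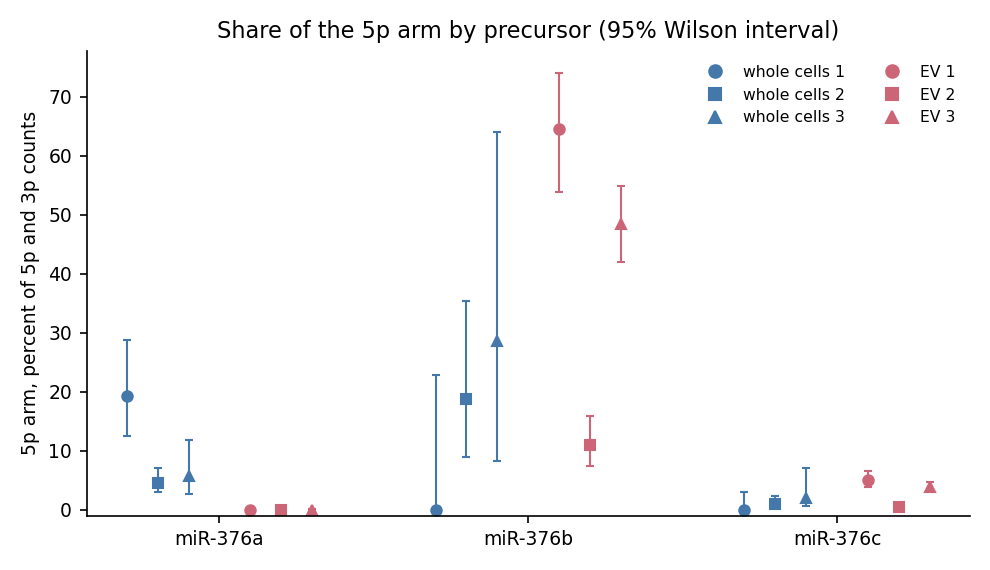
Share of the 5p arm in the 5p and 3p counts of each miR-376 precursor (percent), 1 point for each library with its 95% Wilson interval. The share of miR-376a lies at 0 in all EV libraries and between 4.62% and 19.3% in whole cells, whereas the groups overlap for miR-376b and miR-376c.

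The mix of the 3p arms also differed between the fractions. miR-376a-3p made up 34.6%, 45.9% and 49.8% of the 3p counts of the family in whole cells and 60.6%, 54.3% and 67.2% in EV. miR-376c-3p made up 59.0%, 51.1% and 47.8% in cells and 38.2%, 44.3% and 31.2% in EV. miR-376c-3p was thus the most counted arm in whole cell replicates 1 and 2, and miR-376a-3p in whole cell replicate 3 and every EV library. In whole cell replicate 3 the 100 counts of miR-376a-3p and the 96 of miR-376c-3p were within counting error of each other, with Wilson intervals of 42.9 to 56.6% and 41.0 to 54.6%. miR-376b-3p made up 6.34%, 3.04% and 2.49% in cells and 1.21%, 1.35% and 1.60% in EV. The mature arms are 21 or 22 bases long and each read counts once, so no length correction was made.

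As log2 ratios of counts within a library, with 1 added to each count, miR-376a-3p to miR-376c-3p was -0.29 ± 0.43 in cells and 0.69 ± 0.41 in EV (SD, n = 3 each). miR-376a-3p to miR-376b-3p was 3.43 ± 0.93 in cells and 5.43 ± 0.15 in EV. Both ratios were higher in every EV library than in every whole cell library, and neither depends on the scaling of the libraries. For miR-376a-3p to miR-376a-5p the count ratios in cells were 6.45, 28.0 and 16.7, and in EV, where the 5p arm was at 0, they were at least 485, 2501 and 1636. Each of the 3 ratios, and that of the 3p arms to the neighbouring miRNAs, gave p = 0.1 in the two-sided exact permutation test, the smallest that 3 against 3 allows, and 0.1 after adjustment over the 4 ratios.

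**Figure D3:**
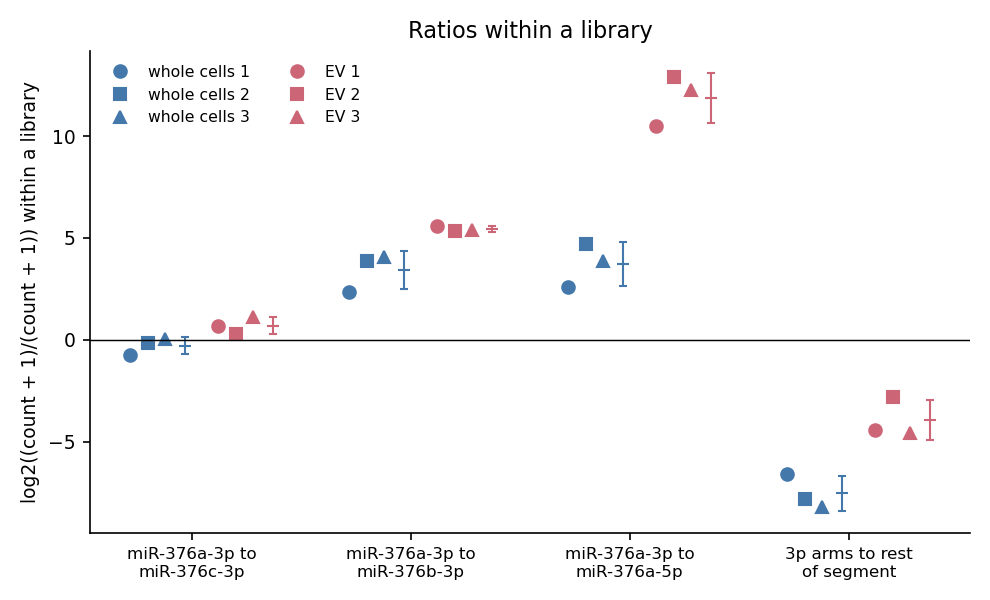
Log2 ratios of counts within each library (1 added to each count) for 3 pairs of miR-376 arms and for the summed 3p arms against the rest of the miR-379 to miR-656 segment. Points are libraries and the bars to their right are mean ± SD (n = 3). All EV points are above all whole cell points in each of the 4 ratios.

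The neighbours in the 14q32 domain set the family against genes of the same place. The distal segment was taken as every mature miRNA that the tables place between miR-379 and miR-656, the members left out, which gave 70 miRNAs, including the 3 other miR-376 arms. Of these, 55 were tested, 3 were called higher in EV (miR-411-5p, miR-889-3p and miR-382-3p) and 1 lower (miR-299-5p). With the same limits DESeq2 called 3 higher and 6 lower, and edgeR with the adjusted p limit at 0.05 called 8 higher and 6 lower. The 8 included miR-376b-5p, miR-376c-5p, miR-300 and miR-655-3p, which reached 5 CPM in EV libraries alone. The 6 lower were the same miRNAs by DESeq2 and edgeR. Apart from miR-299-5p they were miR-379-3p, miR-494-5p, miR-381-5p, miR-487a-5p and miR-410-5p. Those were at 0 in every EV library and reached 5 CPM in whole cells alone. For the miRNAs that reached 5 CPM in 1 fraction alone, a difference was thus built into their selection, in either direction. Over all tested miRNAs, edgeR called 19 higher and 6 lower, DESeq2 42 and 30, and edgeR with the 0.05 limit 51 and 42. The median log2 fold change of the neighbours was -0.20, beside -0.23 over all 430, and 24 of the neighbours were positive and 31 negative. miR-411-5p, with a log2 fold change of 4.40, and miR-889-3p, with 4.24, exceeded miR-376a-3p, which was 6th of the 58 tested in the segment with the members included. At the low end of those called miR-299-5p had -3.58, the range over the neighbours being -9.86 to 4.76. Both ends were near the floor: miR-487a-5p (-9.86) was at 0 in every EV library, and miR-300 (4.76) had 0, 5 and 0 counts in whole cells.

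In the proximal group, from miR-493 to miR-370, 15 of 17 miRNAs were tested, with a median of -0.54. There, miR-136-3p was called higher with 4.95 and miR-493-5p lower with -3.05.

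The segment as a whole took up a like part of both fractions, at 5.01%, 4.85% and 4.82% of all counts in whole cells and 4.47%, 5.47% and 5.74% in EV. Within it, the 3p arms of the family took up 1.03%, 0.441% and 0.333% of the counts in cells and 4.38%, 12.4% and 4.06% in EV. Every EV library was above every whole cell library, and EV replicate 2 stood highest. The log2 ratio of the 3p arms to the rest of the segment was -7.54 ± 0.86 in cells and -3.94 ± 0.97 in EV (SD, n = 3 each), a difference of 3.59. Its exact permutation p of 0.1 is given above.

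**Figure D4:**
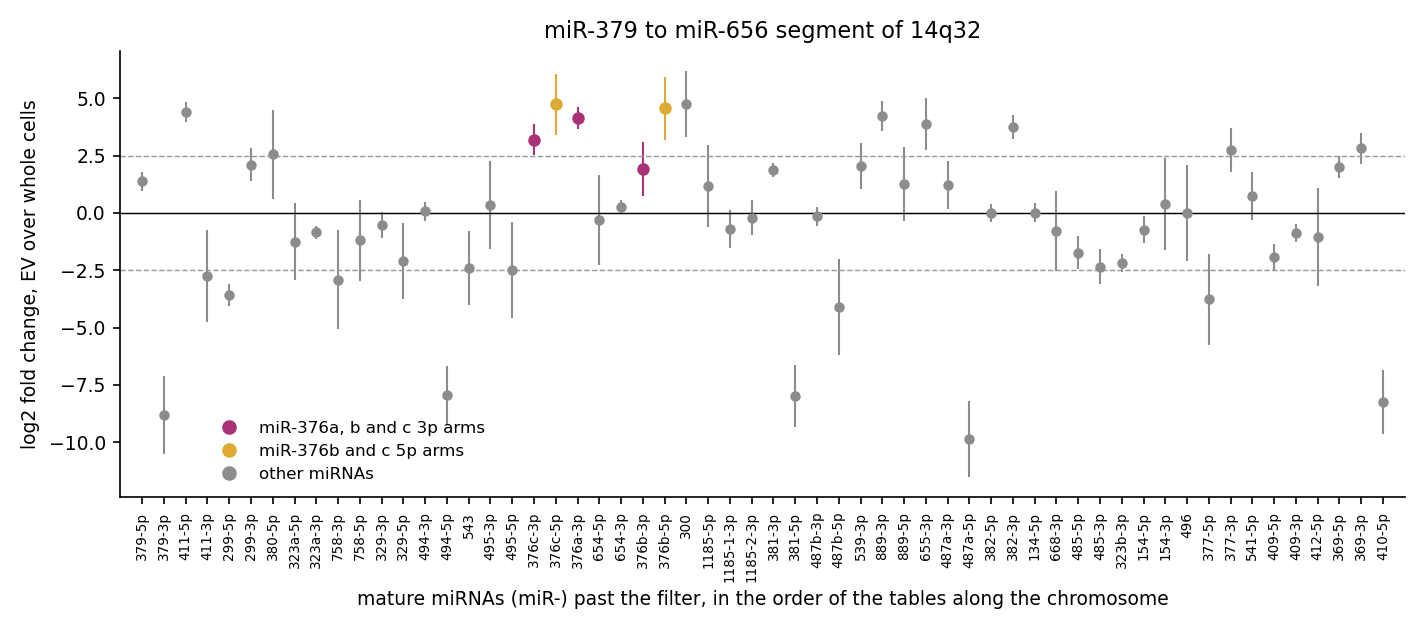
Log2 fold change (EV over whole cells, edgeR) of the 58 tested miRNAs of the miR-379 to miR-656 segment in the order of the tables along the chromosome, with standard errors as vertical bars and dashed lines at 2.5 in both directions. The miR-376 3p arms lie above 0, at 4.16, 3.19 and 1.92, while neighbours on both sides spread from -9.86 to 4.76. The lowest, miR-487a-5p, was at 0 in every EV library, and the highest, miR-300, had 0, 5 and 0 counts in whole cells.

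The nearest precursors varied from one to the next. miR-654, between MIR376A2 and MIR376B in order of position, gave an abundant 3p arm with 1618, 13504 and 4254 counts in cells and 6249, 9554 and 9825 in EV. Its log2 fold change was 0.26 with a standard error of 0.30 (edgeR, adjusted p = 0.595). miR-654-5p was sparse, with 10, 25 and 8 counts in cells and 0, 0 and 79 in EV. On the upstream side, miR-495-3p had 56, 31 and 12 counts in cells and 132, 0 and 156 in EV. Its log2 fold change was 0.36 (edgeR, adjusted p = 0.921), and miR-495-5p had -2.495 (adjusted p = 0.453). On the downstream side, miR-300 was counted 0, 5 and 0 times in cells and 13, 26 and 94 times in EV, and entered the test through EV alone. Further downstream, miR-1185-5p, miR-1185-1-3p and miR-1185-2-3p had log2 fold changes of 1.17, -0.71 and -0.20. miR-381-3p had 1.87 with a standard error of 0.30 (edgeR, adjusted p = 0.00661), below the limit on the fold change, whereas its 5p arm had 12, 53 and 10 counts in cells and 0 in every EV library. A 5p arm counted in cells and at 0 in all EV libraries was not particular to miR-376a. Of the 29 neighbouring precursors of the segment with both arms listed, 8 had it, and the 3p arm had a positive log2 fold change in 5 of the 6 of these where it was tested. These precursors, counted after their values were seen, were miR-381 (1.87), miR-487a (1.22), miR-494 (0.07), miR-539 (2.05) and miR-655 (3.90). The value of miR-494 was close to no difference. miR-655-3p entered the test through EV alone, so its direction was built into its selection. The reverse also occurred: in 5 precursors the 3p arm was counted in cells and at 0 in EV. The 5p arm was positive in 4 of them, with miR-134-5p at only 0.01. miR-410, with both arms at 0 in EV, was in both sets. Over all 430 tested miRNAs, of either arm and any place, 198 had a positive log2 fold change. These small sets were not tested against the other arms of the segment. Of the 70 neighbours, 14 were counted in cells and were at 0 in every EV library, and miR-544a was the only neighbour without a count in any library. Of the 2576 miRNAs listed, 1188 had a count in any library, and 642 of those 1188 were at 0 in every EV library. The share was thus smaller among the neighbours, but the sets were not matched for abundance.

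Over the 6 libraries, the miRNAs whose pattern was most like that of miR-376a-3p were miR-1, miR-101-3p, miR-450b-5p, miR-29c-3p and miR-136-3p. Likeness was measured as the root mean square distance between centred log2(CPM + 4) values, with CPM for this measure also scaled by edgeR's TMM factors. It ran from 0.295 for miR-1 to 0.488 for miR-136-3p, against a median of 2.496 over all other tested miRNAs. The nearest were picked as the smallest of these distances, so their place below the median was fixed by the selection. miR-1 was low in cells (7.58, 4.76 and 3.19 CPM), where the added 4 CPM weighs on the distance. For miR-376c-3p they were miR-340-5p, miR-19b-3p, miR-143-3p, miR-377-3p and miR-29b-3p, at 0.167 to 0.540 with a median of 2.16 over the others. Of these 10, only miR-377-3p lies in the distal segment and only miR-136-3p in the proximal group. With log2(CPM + 1) in place of log2(CPM + 4), miR-101-3p was the nearest to miR-376a-3p (0.368), miR-1 was the 5th (0.493) and miR-141-3p stood in place of miR-136-3p, while the 5 nearest to miR-376c-3p were the same miRNAs. miR-340-5p, picked for this likeness, was also high in whole cell replicate 1 (78.3, 31.1 and 21.6 CPM in cells) and in EV replicate 2 (239, 702 and 229 CPM in EV).

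The sequences of the family are poor in G and C. GC content was 38.1% in miR-376a-3p and miR-376c-3p, 31.8% in miR-376b-3p and 36.4% in miR-376a-5p, against a median of 50% over the 390 tested miRNAs with a matched sequence (90.7% of those tested). Across these 390, which are not independent replicates, GC content and log2 fold change had a Pearson correlation of -0.345. With the trend of each library on GC content removed, the log2 fold change of miR-376a-3p was 3.05 (edgeR, adjusted p = 0.00632), that of miR-376c-3p 2.19 (adjusted p = 0.0295) and that of miR-376b-3p 0.30 (adjusted p = 0.883). The miR-376a-3p call therefore held with this trend removed, at a smaller size, and that of the summed 3p arms did not (2.34, adjusted p = 0.0124). The letters GGAG, CCCU and UGUG, searched on the mature strand only because the miRNA is single-stranded, occurred in none of the 4 members. They occur in 15.8%, 12.1% and 12.9% of the 2262 matched mature miRNAs.

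**Figure D5:**
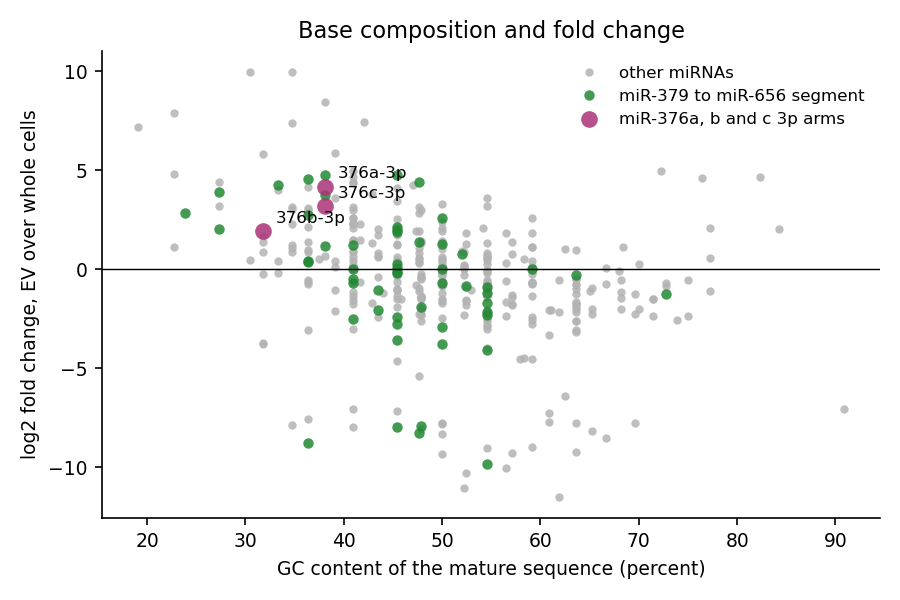
Log2 fold change (EV over whole cells) against the GC content of the mature sequence for the 390 tested miRNAs with a matched sequence. The miR-376 3p arms, at 31.8% and 38.1% GC, lie at 1.92, 3.19 and 4.16 among other miRNAs of low GC content. Of those, more lie above 0 than below it, and the Pearson correlation over all 390 is -0.345.

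Markers of the labelled cell type and of other sources were read in the same libraries. Of 5 miRNAs abundant in Müller glia (miR-9-5p, miR-125b-5p, miR-204-5p, miR-99a-5p and miR-100-5p), all were counted in every library. Their sum was 139473 to 140849 CPM in cells and 79669 to 109575 CPM in EV, miR-125b-5p being the largest part in cells (100534, 114982 and 115967 CPM). They did not move together. miR-125b-5p and miR-204-5p were lower in every EV library. The groups overlapped for miR-9-5p, miR-99a-5p and miR-100-5p, with log2 fold changes of 1.06, 1.28 and 1.03. The neuronal miR-124-3p was at 0 in all 6 libraries. Over all tested miRNAs, 20.5% were higher in every EV library and 27.9% lower, and the marker lists are too short to set against these shares. Of 3 photoreceptor-linked miRNAs, 2 were higher in every EV library (sums of 227 to 333 CPM in cells and 1151 to 1218 in EV). Of 6 miRNAs of blood cells and serum, 3 were higher in every EV library (miR-451a, miR-142-3p and miR-486-5p). At 0 in all whole cell libraries were 3 (miR-451a, miR-142-5p and miR-144-3p). The sums were 164 to 1162 CPM in cells and 1549 to 2289 in EV. Most of them was miR-486-5p, whose groups nearly met, with 164, 875 and 1161 CPM in cells and 1217, 1711 and 1197 in EV. The hepatocyte miRNA miR-122-5p, abundant in serum, was at 7.58 to 11.2 CPM in cells and 91.2 to 200 CPM in EV. Not every marker moved with the fractions. The third photoreceptor-linked miRNA, miR-96-5p, had 10, 29 and 8 counts in cells and 0, 91 and 0 in EV, and miR-142-5p, miR-144-3p and miR-223-3p were at 0 in EV replicate 3. The part of the markers that were higher in EV in the difference of miR-376a-3p was not tested.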

How the data were processed

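Small RNA libraries (QIAseq miRNA kit) of 3 whole cell and 3 EV samples were read from the deposited tables, 1 for each sample. The authors deposited raw read counts for each mature miRNA, made per the file headers with featureCounts 1.5.0-p1 (strand setting 1) on an annotation named for miRBase 20. The headers point to a Bowtie folder, whereas the methods and labels name Bowtie2. The genome build is not named, and no collapsing of molecular identifiers is described, so counts may hold PCR copies. The washes, medium and hours of conditioning given here are those of the labels, whereas the methods name fewer washes, vesicle-depleted medium and a longer time.

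Groups followed the labels, and replicates were numbered in accession order and do not pair samples. The members and the lists of neighbours and markers were chosen with earlier results of these data known. CPM used each table's total, except for likeness of pattern, where TMM factors scaled it too. Fold changes came from edgeR 4.0.16 (R 4.3.3, quasi-likelihood test, TMM factors) over the 430 miRNAs at 5 CPM or more in 3 or more libraries. DESeq2 1.42.0, which the submitters' processing notes name, served as an alternative, beside other scalings, filters, limits, a GC offset (the loess function of R) and each library left out. The scripts were tested on simulated data. Permutation tests went through every split of the 6 libraries into 3 and 3, and Wilson intervals used scipy 1.17.1. Named miRNAs were the members, the other arms of their hairpins, miRNAs sharing a seed, the adjacent precursors, the 5 most alike in pattern, and the 2 highest and 2 lowest called in each 14q32 list. Sequences and hairpin positions came from RefSeq (GRCh38.p14), and overlaps from GENCODE 29.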

Additional observations from a re-analysis of the deposited data

How the results depend on the processing

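The number of miRNAs called (25, of which 19 were higher in EV) was 72 with DESeq2, 38 with upper-quartile factors, 45 without the filter and 93 with the adjusted p limit at 0.05, and ran from 0 to 31 with 1 library left out. The count was 0 without whole cell replicate 3 and without EV replicate 2, where edgeR still gave 121 and 169 miRNAs with an unadjusted p under 0.05. The share of calls that were higher was 76% with TMM factors, 58.3% with RLE factors, 52.6% with upper-quartile factors and 56.8% on library totals. The median log2 fold change of all tested miRNAs was -0.23 with TMM and -0.41 with RLE factors. miR-376a-3p kept its direction in all 13 alternatives that refit the data and its call in 11, with 3.55 to 4.32 when 1 library was left out. It missed the limit without whole cell replicate 3 (3.93, edgeR adjusted p = 0.0178) and without EV replicate 2 (3.55, adjusted p = 0.0160). miR-376c-3p was called with DESeq2 (2.89), without the filter (3.03) and at the limit of 0.05 (3.19), and ran from 2.22 to 3.68 with 1 library left out, adjusted p 0.0165 to 0.0535. miR-376b-3p was called in none of its 13 refits (0.30 to 2.95, adjusted p 0.166 to 0.883). The summed 3p arms missed the limit with RLE factors (3.37, adjusted p = 0.0102), on library totals (3.64, adjusted p = 0.0103), with the GC trend removed (2.34) and with 1 library left out in 5 of 6 cases (2.89 to 4.08 over all 6, adjusted p 0.00978 to 0.0420). The cause was not tested, except that leaving out a library leaves fewer samples. The direction of the differences in level and of the 4 ratios held in all their alternatives. miR-376a-5p did not enter the filtered test, and without the filter its adjusted p by edgeR was 0.0402. miR-376b-3p and the 5p arms had 26 counts or fewer in every whole cell library, and depth, abundance and spread were not separated for them. No paired analysis was possible because the passages share no number across the fractions.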
